A study of Rattus norvegicus with 10 samples.

Results

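Csf3r, Il1r2, Cxcr2, Fpr1, Itgam, Itgb2, Lilrc2, Clec4e and Fcgr2b encode surface receptors of neutrophils, monocytes and macrophages. Granulocyte colony-stimulating factor acts through Csf3r to sustain the making and survival of neutrophils, chemokines and formylated peptides steer these cells through Cxcr2 and Fpr1, and the β2 integrin of Itgam and Itgb2 lets them adhere to and cross the vessel wall. C-type lectin and immunoglobulin-like receptors such as Clec4e, and Fc receptors such as Fcgr2b, then sense damaged cells, microbes and antibody, while Il1r2 is a decoy that binds interleukin-1 without signalling. Several of these genes, Itgam and Itgb2 above all, are also active in the resident microglia of the spinal cord.

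The 9 genes were chosen as a list of myeloid receptors, and their mRNA probes were found by the RefSeq accession that the array gives for each probe. Of the 9 genes, 8 had a probe among the 13888 genes with a named mRNA probe, each with 1 probe and 1 spot, and 7 passed the filter on dim probes. Fpr1 did not pass, and no mRNA probe carried an accession of Fcgr2b, so Fcgr2b was not analysed here. Positions in the RefSeq annotation of GRCr8 are those of the genes and not of the probes. Csf3r lies at chr5:143583126-143604382, Il1r2 at chr9:49879928-49920374, Cxcr2 at chr9:83178645-83185017 and Fpr1 at chr1:67417991-67429813. Itgam lies at chr1:192089496-192139947, Itgb2 at chr20:11061009-11097242, Lilrc2 at chr1:74187623-74192646, Clec4e at chr4:158292624-158298607 and Fcgr2b at chr13:85725897-85740517.

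The samples were lumbar enlargements of male Sprague Dawley rats of 240 to 260 g. The 5 rats of the morphine tolerance (MT) group, numbered 1 to 5, had intrathecal morphine, 10 μg in 10 μl, 2 times daily over 7 days, and the 5 rats of the normal saline (NS) group, numbered 6 to 10, had saline of the same volume. On the day of collection the rats had a further morning injection of morphine or saline and were anaesthetized with pentobarbital 1 hour later. A response to that last injection cannot be told apart from the effect of the earlier course. The methods describe decapitation and no perfusion before the tissue was frozen, so RNA of blood cells still within the vessels could be part of every sample. Total RNA of each rat was labelled along the whole transcript and hybridized to 1 one-colour array.

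Levels are log2 intensities after quantile normalization, and a difference is the MT mean minus the NS mean on that scale. An RNA met the study's criteria if its levels differed by more than 1.5-fold on the linear scale and limma's moderated test gave P below 0.05 before adjustment. Adjustment followed Benjamini and Hochberg over the 20284 RNAs tested. Across all these RNAs 1.74% met the criteria as higher in the MT group and 0.996% as lower, and 0.197% passed an adjusted p of 0.05. The number of arrays limits the precision of every value. By scan time, slide 1 held MT rats 1, 3, 4 and 5, slide 2 held MT rat 2 and also NS rats 6, 7 and 10, and slide 3 held NS rats 8 and 9. Slide 3 was scanned on another day than the other arrays, all MT arrays included, and had the lowest share of spots well above background (58.6% and 63.8%). This share was between 77.4% and 79.6% on the NS arrays of slide 2 and between 81.1% and 83.9% on the MT arrays. Every MT array thus lay above every NS array, on slide 2 as well. This bears on each count of arrays well above background given below. Slide 1 held MT rats only and slide 3 NS rats only. A difference between these slides cannot be told apart from a difference between groups, and only slide 2 held both. All 11 neuron, 7 astrocyte and 9 oligodendrocyte markers matched to a probe passed the filter, and none of them met the criteria.

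Csf3r, Lilrc2 and Clec4e were the receptors that differed between the groups, all 3 in the direction of higher levels in the MT group. They are 42.9% of the 7 receptors tested, beside the 1.74% of all RNAs, and none of the 7 passed the adjusted threshold (4 had P below 0.05 before adjustment). If the fold limit is read as 1.5 on the log2 scale, as the study's text words it, Lilrc2 and Clec4e met it and Csf3r did not. Il1r2 was also higher by its unadjusted P, but under the fold limit. The values of Cxcr2, Itgam and Itgb2 overlapped between the groups, and the intervals of their differences included 0. The median difference of the 7 was 0.64, against -0.00 over all RNAs tested. Cxcr2 and Lilrc2 reached the 5 arrays that the filter asked for through the MT arrays, so the share and the median describe these 7 and support nothing. Fewer cells of a type and less RNA per cell cannot be told apart in such bulk tissue.

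Promoter sequence is shown for the 3 receptors that met the criteria. The stretches are RefSeq sequence of GRCr8, 5′ to 3′ on the strand of the gene, and leave out the bases of the 250-base window before the start site that lie inside the annotated gene. Capitals mark the motifs found, which are the PU.1 core GAGGAA, the C/EBP letters TTGCNNAA and the AP-1 site TGANTCA, on either strand. Csf3r spans chr5:143582970-143583125 on the plus strand, Lilrc2 chr1:74192647-74192834 on the minus strand and Clec4e chr4:158298608-158298717 on the minus strand.
Csf3r: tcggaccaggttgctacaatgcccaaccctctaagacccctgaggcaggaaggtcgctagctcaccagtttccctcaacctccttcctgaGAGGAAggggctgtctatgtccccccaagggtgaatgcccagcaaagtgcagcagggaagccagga
Lilrc2: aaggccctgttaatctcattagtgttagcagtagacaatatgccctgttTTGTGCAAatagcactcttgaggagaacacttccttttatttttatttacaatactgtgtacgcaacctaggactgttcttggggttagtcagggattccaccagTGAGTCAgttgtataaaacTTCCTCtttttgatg
Clec4e: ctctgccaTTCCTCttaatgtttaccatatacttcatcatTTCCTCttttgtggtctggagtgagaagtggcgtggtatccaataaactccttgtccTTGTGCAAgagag

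PU.1 and C/EBP are transcription factors of the myeloid lineage. RefSeq gave a promoter for 6 of the 9 genes, namely Csf3r, Cxcr2, Fpr1, Itgam, Lilrc2 and Clec4e. The PU.1 core was in the whole 250-base window of 5 of these 6, all but Cxcr2, and in 23.3% of 33469 rat promoters. The Fpr1 window lay wholly inside the annotated gene and that of Itgam partly, so the Fpr1 match is not upstream of the gene as annotated. Clec4e held 3 copies, at bases 242 to 237, 210 to 205 and 143 to 138 before the start, of which the third runs into the annotated gene and is not printed whole. Csf3r held 1 copy at bases 160 to 155, and Lilrc2 held 1 at bases 77 to 72. The C/EBP letters were in 3 of the 6 windows and in 9.22% of all promoters. In Lilrc2, at bases 201 to 194, and in Clec4e, at bases 153 to 146, the same 8 letters were matched, TTGTGCAA. The AP-1 letters were found in Lilrc2 alone, at bases 96 to 90 (6.34% of all promoters), the STAT letters TTCNNNGAA in Itgam alone (7.67%) and an NF-kB motif, GGG and TTCC with 3 bases between them, in none of the 6 (4.53%). No motifs overlapped in the printed stretches. A match is a description of these letters and shows no binding.

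Csf3r, the receptor of granulocyte colony-stimulating factor, measured 8.48, 8.53, 7.94, 8.87 and 8.65 in MT rats 1 to 5. In NS rats 6 to 10 it measured 7.64, 7.33, 7.79, 7.69 and 7.49. The groups did not overlap, and MT rat 3 came nearest to the NS values. Such separation, with the MT group above, was seen for 1 of the 7 receptors and for 2.35% of all RNAs (5.64% in either direction). The means were 8.49 ± 0.34 (SD, n = 5) and 7.59 ± 0.18 (SD, n = 5), and the difference was 0.91 (SE 0.16, 95% interval 0.55 to 1.27), a 1.88-fold higher level. In limma the unadjusted P was 0.000234 and the adjusted p 0.0636, which placed Csf3r 74th among the 20284 RNAs. The exact two-sided permutation test over the 252 assignments of the rats gave p = 0.00794, the smallest it can give. On slide 2 alone, MT rat 2 exceeded the mean of NS rats 6, 7 and 10 by 1.04.

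The other cytokine receptor, Il1r2, measured 7.88, 8.22, 7.60, 8.18 and 8.05 in MT rats 1 to 5. In the NS group the values were 7.77, 7.78, 7.12, 7.19 and 7.87, in the order of rats 6 to 10. NS rats 8 and 9 of slide 3 were the lowest, and 4 MT rats lay above every NS rat, MT rat 1 by little. The difference was 0.44 (SE 0.18, 95% interval 0.03 to 0.84), a 1.36-fold higher level, with an unadjusted P of 0.0361 and an adjusted p of 0.276 in limma. An exact permutation test gave p = 0.0556. Before adjustment, 16.4% of all RNAs had P below 0.05. Without the 2 arrays of slide 3 the difference of Il1r2 was 0.18 (95% interval -0.14 to 0.50), and within slide 2 it was 0.41.

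Lilrc2 belongs to the leukocyte immunoglobulin-like receptors, a family of closely related genes whose transcripts 1 probe may not separate. It measured 6.58, 6.70, 5.29, 7.27 and 5.51 in MT rats 1 to 5, and 4.91, 4.67, 5.44, 4.82 and 3.04 in NS rats 6 to 10. MT rats 1, 2 and 4 were the highest, MT rats 3 and 5 lay close to NS rat 8, and NS rat 10 was the lowest. The probe was well above background on 5 MT arrays and on 3 NS arrays, all but those of NS rats 9 and 10. The difference was 1.69 (SE 0.50, 95% interval 0.58 to 2.80), a 3.23-fold higher level in the MT group, with an unadjusted P of 0.00684 and an adjusted p of 0.163 in limma. The exact permutation test gave p = 0.0159. Since the probe passed the filter through the MT arrays, these p-values describe Lilrc2 and are no independent support.

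Clec4e, also called Mincle, is a lectin that binds microbial glycolipids and a protein released by dying cells. Its levels were 7.44, 7.48, 6.06, 8.16 and 6.66 in MT rats 1 to 5, and 6.27, 5.25, 6.28, 5.46 and 3.45 in NS rats 6 to 10. MT rat 3 lay below NS rats 6 and 8, the other 4 MT rats lay above every NS rat, and NS rat 10 was again the lowest. The difference was 1.82 (SE 0.57, 95% interval 0.55 to 3.09), a 3.53-fold higher level, with an unadjusted P of 0.00948 and an adjusted p of 0.180 in limma. The exact permutation test gave p = 0.0238. Both Lilrc2 and Clec4e stand in the study's own list of the most up-regulated mRNAs of these arrays, so their direction here is not independent evidence.

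NS rat 10 carried part of the size of these last differences. Without it, Lilrc2 differed by 1.31 and Clec4e by 1.35, and both still met the criteria. Without the arrays of slide 3 the differences were 2.06 for Lilrc2, 2.17 for Clec4e and 1.01 for Csf3r. Within slide 2, MT rat 2 exceeded the 3 NS rats by 2.49 for Lilrc2 and by 2.50 for Clec4e. Background correction by normexp, in place of the scanner's own subtraction, gave 0.74 for Lilrc2, 0.97 for Clec4e and 0.69 for Csf3r. It added an offset of 50 to every intensity, which by itself narrows the log2 differences of dim probes.

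**Figure D1:**
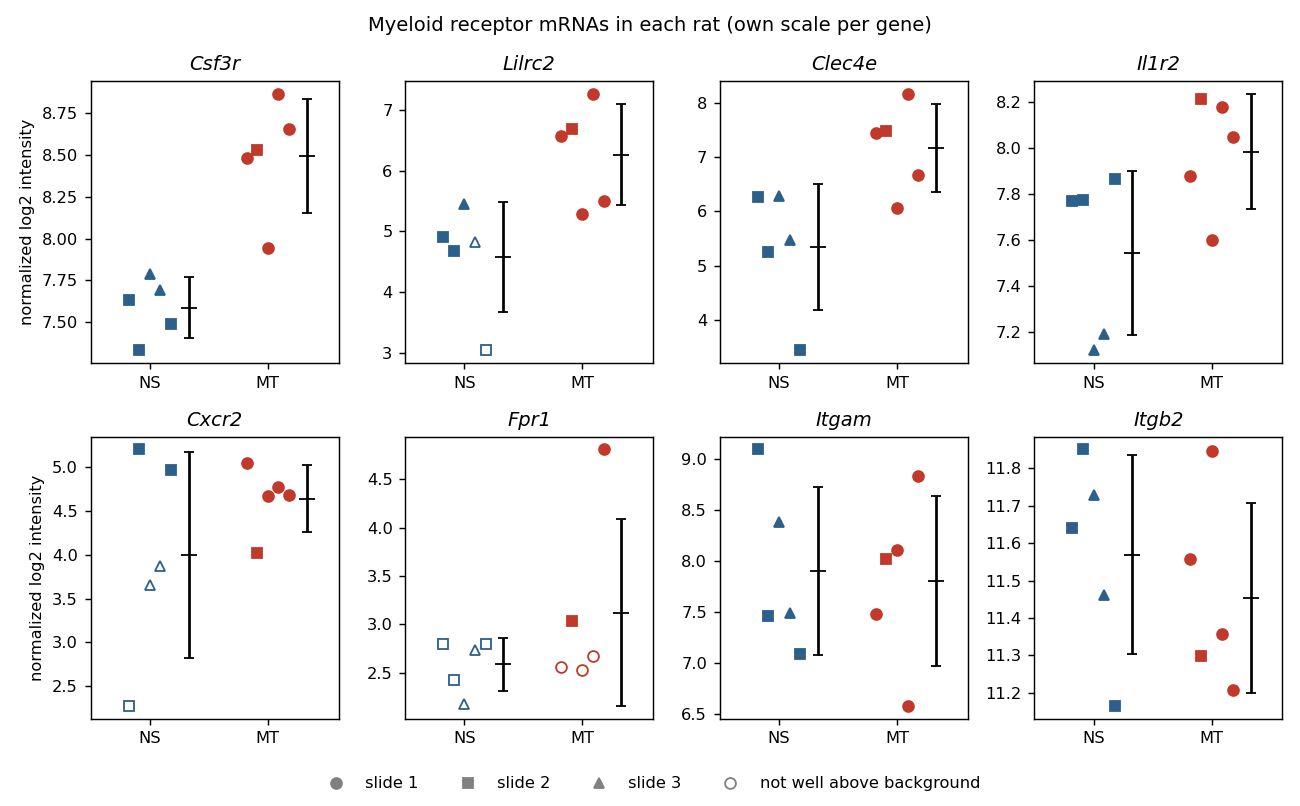
Normalized log2 intensity of 8 receptor mRNAs in each rat, with a scale of its own for each gene. Points are rats, shapes are slides, open points were not well above background, and bars give the mean and SD of 5 rats. For Csf3r the lowest MT value, 7.94, lies above the highest NS value, 7.79.

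Cxcr2, the receptor through which neutrophils follow CXC chemokines, was dim. It measured 5.05, 4.01, 4.67, 4.77 and 4.68 in MT rats 1 to 5 and 2.28, 5.20, 3.65, 3.87 and 4.97 in NS rats 6 to 10. The MT values lay close together, the NS values were spread over a range that held them all, and NS rat 7 was the highest of the 10. The probe was well above background on 5 MT arrays and on 2 NS arrays, those of rats 7 and 10. The difference of 0.64 had an SE of 0.50 and a 95% interval of -0.46 to 1.75 (limma, adjusted p = 0.540). Within slide 2 it was -0.13.

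Fpr1, the receptor of formylated peptides from bacteria and mitochondria, measured 2.56, 3.03, 2.53, 2.68 and 4.81 in MT rats 1 to 5 and 2.79, 2.43, 2.18, 2.74 and 2.80 in NS rats 6 to 10. Its probe was well above background in MT rats 2 and 5 and on 0 NS arrays. The value of MT rat 5 stood apart from the other 9. The NS level is a bound only, and since that bound lay above the MT mean no fold is given. The exact permutation test of the measured means gave p = 0.270.

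Itgam and Itgb2 encode the α and β chains of complement receptor 3, which myeloid cells and microglia share. Itgam measured 7.49, 8.02, 8.11, 6.59 and 8.84 in MT rats 1 to 5 and 9.10, 7.46, 8.39, 7.49 and 7.09 in NS rats 6 to 10. The highest value was that of an NS rat and the lowest that of an MT rat, MT rat 4. The difference was -0.10 (SE 0.47, 95% interval -1.15 to 0.95, limma, adjusted p = 0.932), and its sign was positive, at 0.14, within slide 2.

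Itgb2 measured 11.56, 11.30, 11.85, 11.36 and 11.21 in MT rats 1 to 5 and 11.64, 11.85, 11.73, 11.46 and 11.16 in NS rats 6 to 10. The groups overlapped over nearly their whole range. The difference was -0.12 (SE 0.16, limma, adjusted p = 0.735). In this fit, which takes no account of slides, its 95% interval was -0.46 to 0.23. That leaves out a 1.5-fold change in either direction, whereas the intervals of Itgam and Cxcr2 include one. With slides as fixed blocks the interval of Itgb2 was wider and included a 1.5-fold lower level.

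**Figure D2:**
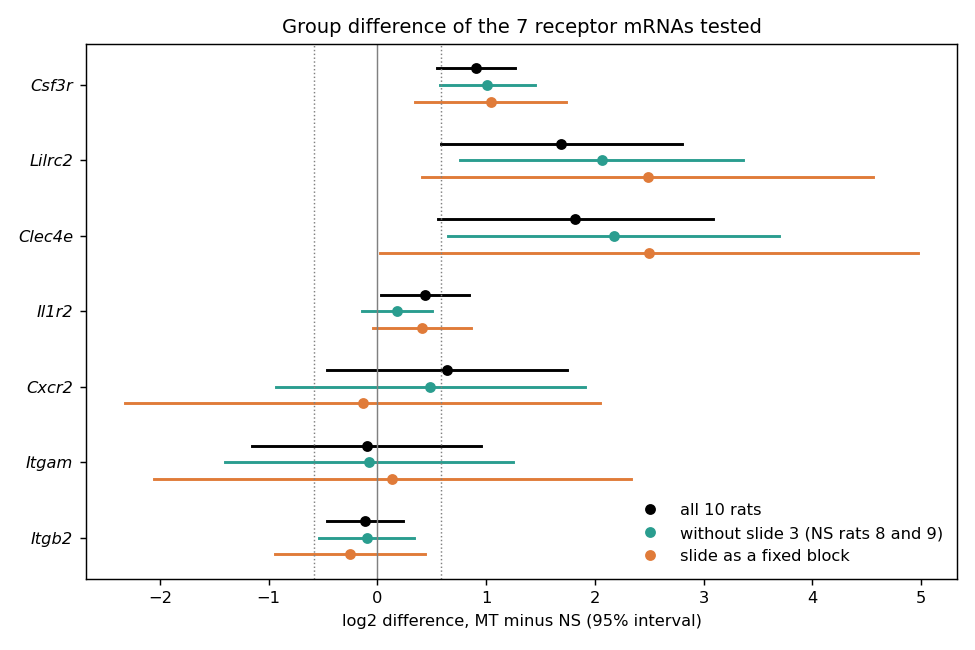
Log2 difference, MT minus NS, of the 7 receptors tested, with its 95% interval from limma, for all 10 rats, for the 8 rats left when slide 3 is dropped, and with slides as fixed blocks. Dotted lines mark a 1.5-fold change. The intervals of Csf3r, Lilrc2 and Clec4e lie above 0 in all 3 fits, and that of Cxcr2 includes 0 in all 3.

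The receptors did not share 1 profile over the rats. Lilrc2 and Clec4e were the closest pair of the 21 pairs compared. Over the 10 rats Pearson's r was 0.98 and Spearman's rho 0.99, with permutation p = 4e-05 and 3e-05 and Benjamini-Hochberg values over the 21 pairs of 0.00084 and 0.00063. The permutations moved rats across the groups, so these p-values also include the group difference of both receptors. The r was 0.95 without the 2 rats farthest from the median of Lilrc2. After each group's mean was removed it was 0.96, for which no p was computed. Each slide held too few arrays for a value within it, and arrays share slides and, within a rat, RNA quality. Csf3r separated the groups, so no pooled correlation is given for it. With the group means removed its r was 0.60 with Lilrc2 and 0.62 with Clec4e, and 0.15 with Il1r2. For Itgam and Itgb2, which form 1 heterodimer, r was 0.20 over the 10 rats (permutation p = 0.576, adjusted 0.990) and rho was 0.19 (p = 0.607, adjusted 0.911). Without the 2 rats farthest from the median, that r was -0.00.

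**Figure D3:**
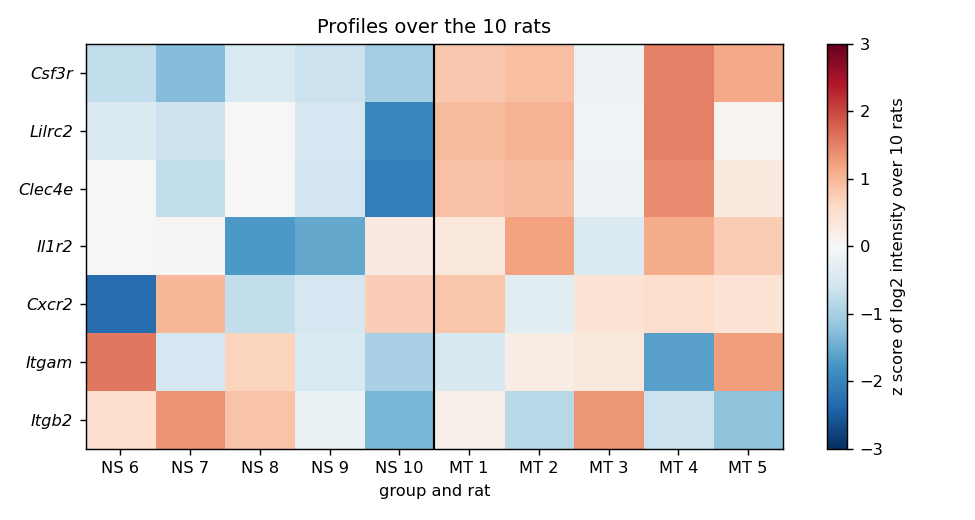
Z score of the log2 intensity of each tested receptor over the 10 rats, with NS rats 6 to 10 on the left and MT rats 1 to 5 on the right of the line. The rows of Lilrc2 and Clec4e run together (r = 0.98), with MT rat 4 highest and NS rat 10 lowest in both.

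Among 12098 other genes, those with the profile most like the mean z-scored profile of the 7 receptors over the 10 arrays were Bst1 (Pearson r = 0.968), Bcl3 (0.965), Ptges (0.962), Trim45 (0.959) and Gadd45g (0.955). The gene most like each receptor was Chad for Csf3r (0.962), Fgf10 for Il1r2 (0.990), Btbd16 for Cxcr2 (0.973) and Ptprj for Itgam (0.957). It was Srgn for Itgb2 (0.976), Plaur for Lilrc2 (0.977) and Clec10a for Clec4e (0.982). These are the highest of many values over 10 arrays that share slides and groups, and they are given as a description.

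Of 19 ligand and signalling genes listed for Csf3r 15 were tested, and 1, Socs3, met the criteria. Over all RNAs tested, 1.74% met them as higher and 0.996% as lower, the shares to set beside each list. The median difference was 0.20, and Stat5b, Cebpe and Gfi1 passed the filter through the MT arrays. Socs3 is the feedback inhibitor that cytokine receptors of this class induce. It measured 6.62, 6.81, 6.29, 6.85 and 6.50 in the MT group and 5.99, 5.81, 5.74, 5.81 and 6.04 in the NS group. The groups were apart, as for 2.35% of all RNAs with MT above, and the difference was 0.74 (SE 0.12), with an adjusted p of 0.0467 in limma. Csf3, the ligand itself, differed by 0.87 (SE 0.43, adjusted p = 0.339 in limma), and its groups overlapped. The count of higher genes was 5 under 75th percentile scaling and with array weights, and 4 without slide 3. It was 2 without MT rat 3, NS rat 7 or NS rat 9, and 3 without NS rat 6 or NS rat 8.

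Of 17 interleukin-1 pathway genes 15 were tested, with a median difference of 0.00. Il1rl1 and Il1rl2 passed the filter through the MT arrays. The agonist Il1a differed by 1.27 (SE 0.53, adjusted p = 0.278 in limma) and the receptor antagonist Il1rn by 0.86 (SE 0.32, adjusted p = 0.235), and these 2 were the genes that met the criteria. Il1a measured 9.07, 8.82, 7.92, 9.54 and 7.40 in the MT group and 7.54, 7.91, 7.96, 7.42 and 5.57 in the NS group. NS rat 10 was the lowest by far, and without it Il1a differed by 0.84 (adjusted p = 0.302 in limma) and no longer met the criteria. Il1b, the other agonist, differed by 0.47 (SE 0.48), and the co-receptor Il1rap by 0.09 (SE 0.10). No probe matched Il1r1, the signalling receptor. The list held 1 higher gene past the criteria without MT rat 1, MT rat 2, NS rat 9 or NS rat 10, by the test of the study's methods and with slides as random blocks, and 0 without MT rat 4 or with slides as fixed blocks. Without MT rat 4 or NS rat 10, 1 gene met them as lower.

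Ligands of Cxcr2 did not meet the criteria. Cxcl1 measured 11.32, 11.52, 10.88, 11.60 and 11.64 in the MT group and 12.20, 10.43, 11.37, 9.59 and 6.63 in the NS group. NS rat 6 was the highest and NS rat 10 the lowest of all, so the difference of 1.35 had an SE of 0.87 (adjusted p = 0.463 in limma). Cxcl2 differed by 0.06 (SE 0.73) and Anxa1, a ligand of formyl peptide receptors, by 0.05 (SE 0.14), while no probe matched Cxcl3 or Fpr2. Of the 20 ligands and chemoattractant receptors listed, 13 were tested. Cxcl6, Ccr2, Ltb4r and Ltb4r2 passed the filter through the MT arrays. Ccr1, a chemokine receptor of monocytes and neutrophils, was the 1 that met the criteria. It measured 7.64, 7.62, 7.16, 8.06 and 7.24 in the MT group and 6.36, 6.01, 6.44, 6.10 and 5.97 in the NS group. The groups did not overlap (2.35% of all RNAs with MT above), and the difference was 1.37 (SE 0.17, adjusted p = 0.0287 in limma). The count of higher genes was 3 under 75th percentile scaling, and 2 with array weights, with slides as random blocks, without slide 3 and without MT rat 2, MT rat 3 or NS rat 6. As lower, 2 genes met the criteria with fixed or random blocks and without MT rat 3, and 1 without NS rat 10.

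Adhesion partners of the integrin were mixed, with 16 of 21 tested and 1 past the criteria in each direction. Sele, the endothelial selectin that slows leukocytes on the vessel wall, was higher by 1.74 (SE 0.60, adjusted p = 0.210 in limma). Its probe was well above background on 5 MT arrays and 4 NS arrays, so it passed the filter through the MT arrays, as did Itgad. C3, whose fragment is a ligand of the Itgam and Itgb2 heterodimer, measured 15.92, 16.08, 15.69, 16.07 and 16.04 in the MT group and 16.59, 16.42, 16.82, 16.77 and 16.40 in the NS group. The C3 groups did not overlap (5.64% of all RNAs in either direction), and the difference was -0.64 (SE 0.11, adjusted p = 0.0600). C3 fell under the fold limit without slide 3, MT rat 3 or NS rat 8, with array weights, with fixed or random slide blocks and under 75th percentile scaling. Sele missed the criteria with fixed blocks and was not tested under the filter on all 10 arrays. Icam1 differed by 0.58 (SE 0.36, adjusted p = 0.446 in limma) and the sister chain Itgal by -0.34 (SE 0.20, adjusted p = 0.417), and no probe matched Itgax.

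Of 38 adaptors and paired receptors listed 27 were tested, with a median difference of -0.34. Lilrb3, in the study's own list of up-regulated mRNAs, was not matched to a probe through RefSeq. Lilrb2 passed the filter through the MT arrays and did not meet the criteria. Lilrb4, an inhibitory relative of Lilrc2, met the criteria as higher (1.00), and Clec4a, Clec4a2, Trem2 and Cd300lf met them as lower. Clec4a, an inhibitory lectin of the same family as Clec4e, measured 6.88, 6.83, 6.99, 7.00 and 7.03 in the MT group and 7.62, 7.85, 7.81, 7.79 and 7.58 in the NS group. Its difference was -0.78 (SE 0.08, adjusted p = 0.0215 in limma), and the groups did not overlap (5.64% of all RNAs in either direction). Clec4a2 differed by -0.73 (adjusted p = 0.0899), Trem2, a lipid receptor of microglia, by -0.72 (adjusted p = 0.0634), and Cd300lf by -0.60. The count of higher genes was 0 with slides as fixed blocks and 2 without MT rat 3 or NS rat 6. The count of lower genes was 1 without slide 3 and with array weights, 7 without MT rat 1, 8 without NS rat 6 or NS rat 10 and 9 without MT rat 3.

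The adaptors through which such receptors signal did not meet the fold limit. Tyrobp differed by -0.43 (SE 0.14, adjusted p = 0.190 in limma) and Fcer1g, the chain that carries the signal of Clec4e, by -0.42 (SE 0.17, adjusted p = 0.258). The kinase Syk differed by -0.12 (SE 0.08) and the phosphatase Ptpn6 by -0.37 (SE 0.21). Clec4d, the receptor paired with Clec4e, was well above background on 4 MT arrays and 0 NS arrays. It was therefore not tested. A bound on its fold from the group means, MT over NS, was 1.5, with no interval. As the NS level of each array it took the higher of the probe's own value and the lowest signal well above background. The MT mean includes an array that was not well above background. The measured values overlapped, since the lowest MT value was 2.71 and the highest NS value 3.26.

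**Figure D4:**
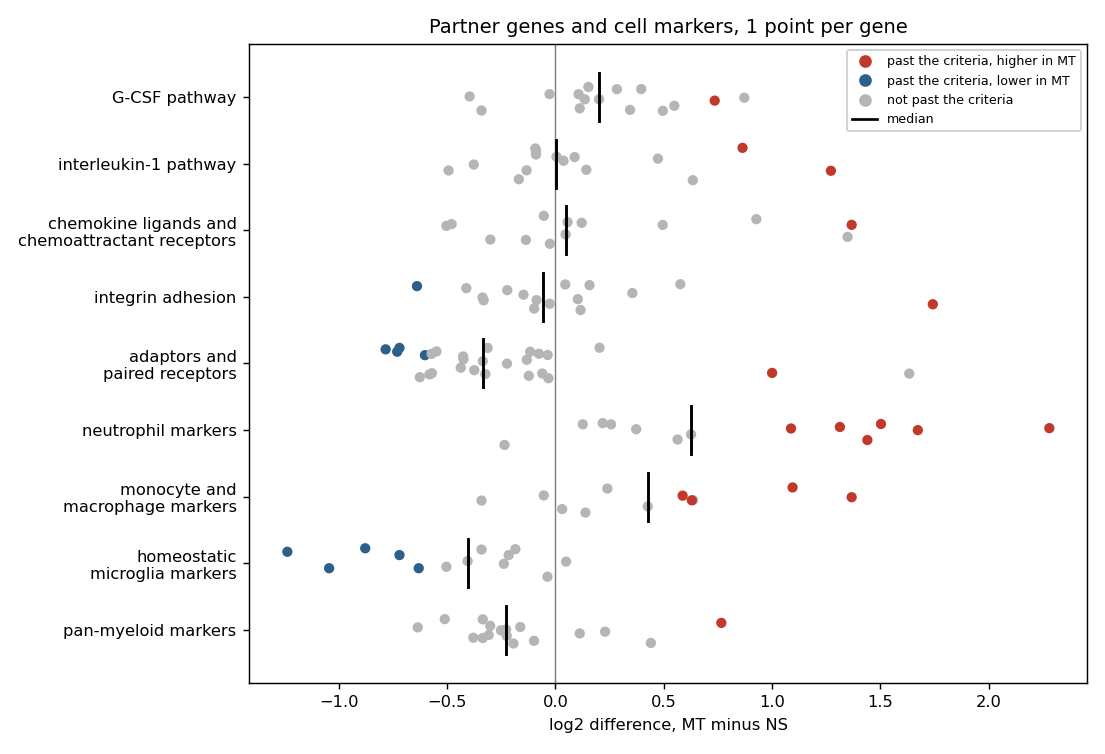
Log2 difference, MT minus NS, of each tested gene of the 5 partner lists and of 4 marker lists, with the median of each list as a bar. Coloured points met the study's criteria. The neutrophil markers have a median of 0.63 and the adaptors and paired receptors one of -0.34. Some genes of the 5 partner lists and of the neutrophil and monocyte lists passed the filter through the MT arrays.

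Some markers of neutrophils and of monocytes met the criteria as higher, and some of microglia as lower. Of 24 neutrophil markers 18 were matched to a probe through RefSeq and 13 were tested. Of these, 6 met the criteria, all higher, beside 1.74% of all RNAs. Defa7, in the study's own list of up-regulated mRNAs, was not matched. Prtn3, Ngp and Pglyrp1 passed the filter through the MT arrays and did not meet the criteria, and Lcn2 differed by -0.24. RatNP-3b, which met them, was well above background on 5 MT arrays and 4 NS arrays, so it too passed through the MT arrays. Slpi, a protease inhibitor of neutrophils and epithelia, differed by 1.67 (SE 0.24, adjusted p = 0.0425 in limma), and the defensins RatNP-3b and Np4 by 2.28 (SE 0.48, adjusted p = 0.0926) and 1.31 (SE 0.28, adjusted p = 0.0930). The mean of the list, centred on each gene's mean over the rats, ranged from 0.31 to 0.53 in the MT rats and from -0.65 to -0.21 in the NS rats. That mean includes Prtn3, Ngp, Pglyrp1 and RatNP-3b, so its gap between the groups is a description and supports nothing. Ltf, Mmp8, Retnlg and Cxcr1 were not well above background on any array. Slpi, RatNP-3b and Np4, like Sele, Ccr1, Tmem119, Fcrls and Cd22, are in the study's own lists of changed mRNAs of these arrays and are not independent evidence of a direction. The count ranged from 4, with slides as fixed blocks, to 9, under 75th percentile scaling, and was 8 without slide 3 and 7 without NS rat 10.

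Of 18 monocyte and macrophage markers 11 were tested, and 4 met the criteria as higher, Ccr1, Cd14 (1.09), Mrc1 (0.63) and Fn1 (0.59). Among all RNAs the share was 1.74%. The difference was positive for 9 of the 11 markers and negative for Ccr2 (-0.05) and Plac8 (-0.34). The centred mean of the 11 ranged from 0.08 to 0.29 in the MT rats and from -0.55 to -0.05 in the NS rats. It includes Ccr2, Marco and Cd36, which passed the filter through the MT arrays, so it too is a description. Cd163 was not well above background on any array. The count was 2 without NS rat 10 and under normexp, and Mrc1 also fell under the fold limit without MT rat 4.

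Of 15 homeostatic microglia markers 13 were tested, and 5 met the criteria as lower and 0 as higher, beside 0.996% and 1.74% of all RNAs. Tmem119 differed by -1.24 (SE 0.21, adjusted p = 0.0555 in limma), Gpr34 by -0.63 (SE 0.09, adjusted p = 0.0414), Trem2 by -0.72, Fcrls by -1.04 and Slc2a5 by -0.88. The centred mean lay between -0.39 and -0.07 in the MT rats and between 0.07 and 0.39 in the NS rats. The count was 3 without slide 3, with array weights and with slides as fixed blocks, and Gpr34 fell under the fold limit without MT rat 3 or NS rat 8. Of 17 pan-myeloid markers tested, Lyz2 (0.77) was the 1 that met the criteria. That count was 0 with slides as fixed blocks and 2 without MT rat 5, and without NS rat 10 a marker met the criteria as lower. The centred mean of that list ranged from -0.38 to 0.45 in the MT rats and from -0.33 to 0.32 in the NS rats. Of 14 lymphocyte markers tested, 0 met the criteria as higher and 2, Cd22 (-1.05) and Cd79b (-0.89), as lower, and the count was 1 without slide 3, MT rat 2, MT rat 4, NS rat 8 or NS rat 9, under the other scaling, background correction and filter on all 10 arrays, by the test of the study's methods and with array weights. Cd79b was dim, and its probe was well above background on 3 MT arrays and 2 NS arrays, just enough to pass the filter. Its highest values, 5.09 and 4.56, came from NS rats 8 and 9 of slide 3. The part of the cells of any of these lists in the differences of Csf3r, Lilrc2 and Clec4e was not tested. None of the 8 erythrocyte or 6 endothelial markers tested met the criteria.

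**Figure D5:**
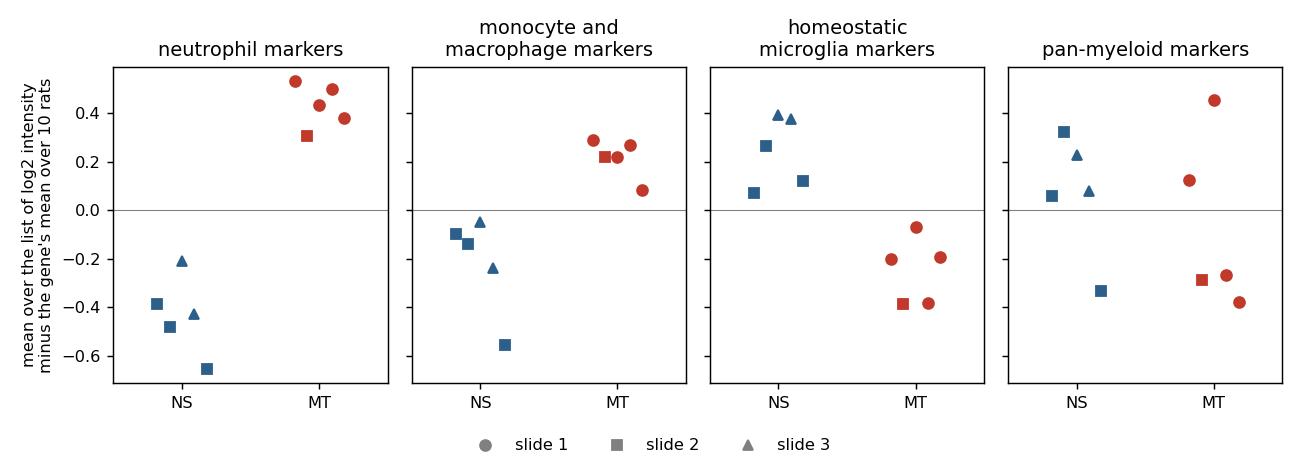
Mean over each marker list of the log2 intensity minus the gene's mean over the 10 rats, with 1 point per rat and shapes for the slides. The neutrophil list is at or above 0.31 in every MT rat and at or below -0.21 in every NS rat, and the pan-myeloid list overlaps between the groups. The neutrophil and monocyte lists hold genes that passed the filter through the MT arrays, so their gaps are a description.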

How the data were processed

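Lumbar spinal cord RNA of 5 MT and 5 NS rats was measured on 1 array each. The authors used Agilent Feature Extraction 11.0.1.1 and deposited, for each spot, an intensity with the background subtracted. They also deposited a table of log2 values after quantile normalization, which served here as an alternative. Its values correlated with those computed here with r between 0.993 and 0.999 on each array.

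In R 4.3.3, with limma 3.58.1 (and data.table, version 1.17.8), the intensities (floor 1, lowest value 1.71) were taken to log2 and quantile normalized. Spots marked as outliers were dropped, and values were averaged over spots, then over probes of the same RNA. The filter asked for over 50% of the spots well above background on 5 or more arrays, and it left 20286 RNAs, of which 13375 were mRNAs and 20284 had values in both groups. Of 15313 mRNA accessions, 14264 were named through RefSeq GRCr8. Groups were compared with lmFit and eBayes over all RNAs, with Benjamini-Hochberg adjustment, and single receptors also by exact permutation. Correlations used 100000 permutations. Each rat is a separate animal.

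The receptors and gene lists were chosen with earlier results of these data known. The genes named are the receptors, their direct ligands, co-receptors and adaptors, and up to 3 genes of each list past the criteria by smallest P. Lilrb4, Cd300lf, Fn1, Fcrls and Slc2a5 fall outside this rule and were named after their values were seen. The alternatives were 75th percentile scaling, normexp, the deposited table, other filters and tests, array weights, slide blocks and leaving out slide 3 or each rat. The steps were tested on simulated data. The plots used Python 3.11.15 and matplotlib 3.10.9.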

Additional observations from a re-analysis of the deposited data

Results flagged for a closer look

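Single rats stood apart from the other 4 of their group in 5 of the 78 sets of 5 values examined, by the gap to the nearest value over the range of the group (Dixon's test). Chance alone gives about 1 in 20. For Fpr1 the value of MT rat 5 was 4.81, against 2.53 to 3.03 in the other MT rats. NS rat 10 was the lowest of its group in the other 4 sets. It measured 8.68 for Il1rn, against 9.60 to 9.93 in the other NS rats. For Il1a it measured 5.57, against 7.42 to 7.96. For Cxcl2 it measured 4.21, against 7.25 to 8.30, and for Icam1 7.98, against 9.33 to 9.80. The same rat was also the lowest of the 10 for Lilrc2 and Clec4e, where its gap stayed under the limit of that test.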

How the results depend on the processing

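Csf3r and Clec4e met the criteria of 1.5-fold in 23 of 23 alternatives and Lilrc2 in the 22 that tested it, and the receptors past the criteria numbered 3, except that they were 2 with the filter on all 10 arrays, which left Lilrc2 untested, and 2 with the limit read as a log2 change of 1.5, which Csf3r missed. The direction of Csf3r, Lilrc2, Clec4e, Il1r2 and Itgb2 held throughout. Itgam turned to 0.14 with the slide as a fixed block and to 0.0132 with the random block, and ranged from -0.35 to 0.21 when 1 rat was left out (positive without MT rat 4, NS rat 6 or NS rat 8). Cxcr2 turned to -0.13 with the fixed block. The fixed block takes its difference from MT rat 2 and NS rats 6, 7 and 10. Anxa1 turned to -0.00179 under 75th percentile scaling, -0.0831 with array weights and -0.0115 without slide 3 (-0.0212 to 0.145 with 1 rat left out, negative without MT rat 5, NS rat 9 or NS rat 10), and Cxcl2 to -0.11 under normexp (-0.67 to 0.35, negative without MT rat 1, 2 or 4 or NS rat 10). The cause was not tested.

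The adjusted p of Csf3r ranged from 0.0196 to 0.964. Receptors past the adjusted threshold numbered 1, Csf3r, under 75th percentile scaling, normexp, the filter on all 10 arrays, a variance trend and array weights, and from 0 to 1 with 1 rat left out (1 without MT rat 3). The median difference of the receptors was 0.97 under 75th percentile scaling, 0.34 under normexp, 0.91 with the deposited table, 0.98 with array weights and 0.50 to 0.88 with 1 rat left out. All RNAs past the criteria numbered 201 under normexp, 912 with no filter, 349 with the filter on all 10 arrays, 326 and 328 with the fixed and the random block, 22 when the limit was read as a log2 change of 1.5, and 426 to 867 with 1 rat left out (867 without NS rat 10), against 555. All RNAs past the adjusted threshold numbered 143 under normexp, 66 with the deposited table, 12 with no filter, 120 with the filter on all 10 arrays, 117 with a variance trend, 224 with array weights, 0 with either block, 2 without slide 3 and 0 to 84 with 1 rat left out (0 without MT rat 1 or NS rat 9, 84 without MT rat 2, 64 without NS rat 10, and 2 to 21 without MT rat 3, 4 or 5 or NS rat 7 or 8), against 40. Under 75th percentile scaling 86.3% of the calls were higher (708 against 112), against 63.6%, and the median of all RNAs shifted by 0.07. Normexp used median signals and was, with the recounts of the lists, chosen after seeing the data. Its offset of 50 narrows the differences of dim probes, so its lower values are not those of the background method alone. No paired analysis was possible because the rats of the groups share no numbers.

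Single probes of 1 spot measure each receptor, dim probes such as those of Cxcr2, Fpr1 and Lilrc2 carry more noise, and no file gives cell counts.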
